A study of Mus musculus with 12 samples.

Results

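Perforin, granzymes and their granule partners were followed as 10 genes of the 27179 in the count table: Prf1, Gzma, Gzmb, Gzmc, Gzmk, Gzmm, Nkg7, Ctsw, Ctsc and Srgn. They were taken by gene symbol as transcripts of cytotoxic granule proteins, and all 10 passed the filter on low counts. The cells are described as natural killer (NK) cells, isolated by sorting at day 21 out of tumours in mice that model pancreatic cancer. They gave 12 libraries in 4 groups of 3. All mice carried the WT genotype. The control group is labelled IgG. The protocol names PBS as given in place of cGAMP, without saying to which groups. The cGAMP group received 10 µg of cGAMP, a cyclic dinucleotide that activates the adaptor STING, intravenously on 4 occasions. The anti-IL-35 group received 200 µg of an antibody that blocks the cytokine IL-35, intraperitoneally on 3 occasions, and the combination group received both. Each course began on day 8 after tumour cell injection and was repeated every 3 days. Whether the 3 libraries in each group stem from different mice was not stated in the sources used here, and the p-values therefore measure the spread among libraries, possibly a technical one.

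Cytotoxic lymphocytes store perforin and granzymes in secretory lysosomes and release them at the contact with a target cell. Perforin forms pores in the target membrane, and the granzymes are serine proteases that enter through them and cleave intracellular substrates. Serglycin, the proteoglycan core protein encoded by Srgn, holds granzymes in the granule matrix, and the dipeptidyl peptidase encoded by Ctsc removes the propeptide that keeps granzymes inactive.

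Library totals ran from 12811353 to 22217766 assigned reads. The 9 NK marker genes were detected in each group, with summed levels of 3336 ± 31.0, 3677 ± 20.1, 3555 ± 106 and 3167 ± 20.9 CPM (TMM-scaled read counts relative to library size, mean ± SD, n = 3) in the IgG, cGAMP, anti-IL-35 and combination groups. The NK markers were Ncr1, Klrb1c, Klrk1, Klrd1, Eomes, Tbx21, Klre1, Klri2 and Tyrobp. Transcripts of other cells were also present in each group, and the B cell and neutrophil sums were above the NK sum in each. Sums over lists of different genes do not give shares of cells. The levels given here are those of the whole sorted sample, not of NK cells alone. The 16 neutrophil markers summed to 5100 to 5300 CPM in the IgG libraries, 11834 to 12013 with cGAMP, 22076 to 23265 with the antibody alone and 20251 to 20308 with the combination. The 11 B cell markers summed to 13956 to 14289, 14856 to 15331, 6106 to 6172 and 15202 to 15512 CPM in the same order. The 13 T cell markers, a class that also transcribes perforin and granzymes, summed to 508.7 to 698 CPM over all libraries. In bulk RNA of this kind, fewer cells of a type and less RNA per cell cannot be told apart.

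Per kilobase of exon, Gzma was the most abundant of the granule transcripts in each group, at 1814 ± 26.2, 2018 ± 68.7, 1792 ± 126 and 1707 ± 47.2 CPM per kb in these 4 groups. Nkg7 followed at group means of 709 to 786 CPM per kb. Prf1 lay at 247 to 282, Srgn at 232 to 398, Gzmb at 207 to 219 and Ctsw at 183 to 227 CPM per kb. Ctsc stood at 55.4 to 74.3 CPM per kb. The remaining granzymes were scarce, with Gzmm at 6.52 to 9.08, Gzmk at 2.72 to 2.89 and Gzmc at 1.3 to 2.80 CPM per kb. The reads of the 10 genes made up 0.486 ± 0.0018% of all counts with IgG, 0.486 ± 0.0075% with cGAMP, 0.467 ± 0.016% with the antibody alone and 0.444 ± 0.0025% with the combination. On the TMM scale their summed level was 4539.5 ± 23.0 CPM with IgG, 4902 ± 57.6 with cGAMP, 4774 ± 150 with the antibody alone and 4619 ± 23.0 with the combination, and Gzma made up 37.2% to 41.4% of it.

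**Figure D1:**
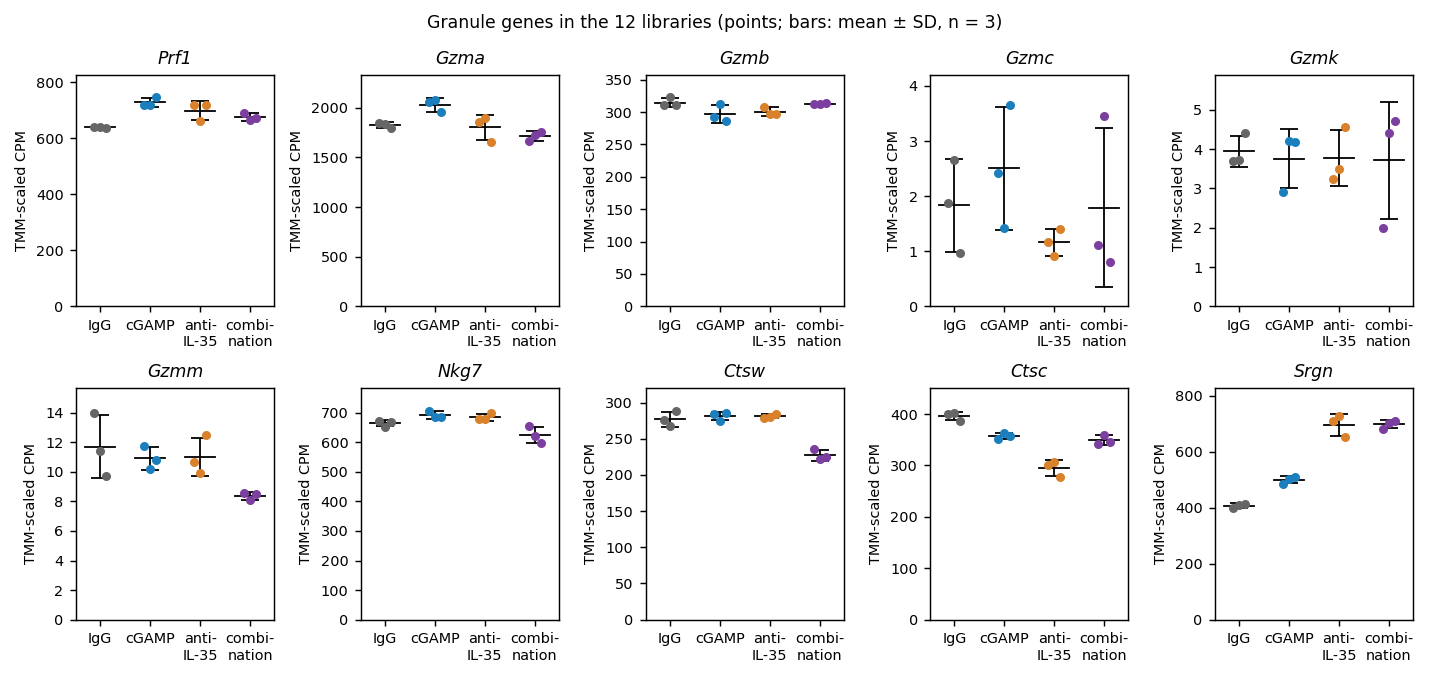
TMM-scaled CPM (y axis, from 0) of the 10 granule genes in the 12 libraries, by treatment group (x axis). Points are libraries, long bars are means and capped lines are SDs (n = 3); Srgn rises from 407 ± 8.34 CPM with IgG to 698 ± 15.3 with the combination, Ctsw is lowest in the 3 combination libraries and Gzmb varies least between groups among the abundant granzymes.

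The promoters of 4 of these genes are shown because their transcripts took different courses across the same libraries under TMM. Prf1 and Gzma were called higher with cGAMP, Gzmb was called in no comparison and Ctsc was called lower with each treatment. Other scalings of the libraries changed several of these calls, as given below. Windows run from 250 bases before to 50 bases after a start given in RefSeq on build GRCm38.p6 and read 5′ to 3′ along the gene. That start is the outermost one of the gene for Gzma and Gzmb, and lies 85 bases downstream of the outermost start for Prf1 and 61 bases downstream for Ctsc; positions are counted from the start used for the window. The window of Prf1 is chr10:61297586-61297885 on the plus strand, that of Gzma chr13:113100932-113101231 on the minus strand, that of Gzmb chr14:56262285-56262584 on the minus strand and that of Ctsc chr7:88277835-88278134 on the plus strand. Capitals mark matches, on either strand, to the letters searched: GGTGTGA for T-box factors, TGTGGTT for Runx, TTCNNNGAA for STAT and GAAA, 2 bases of any kind and GAAA for the interferon-stimulated response element.
Prf1: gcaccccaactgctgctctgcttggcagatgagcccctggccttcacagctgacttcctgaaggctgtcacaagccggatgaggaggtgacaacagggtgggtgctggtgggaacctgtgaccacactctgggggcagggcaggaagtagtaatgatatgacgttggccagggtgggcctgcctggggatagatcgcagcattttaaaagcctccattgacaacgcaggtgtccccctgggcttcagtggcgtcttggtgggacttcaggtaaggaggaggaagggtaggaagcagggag
Gzma: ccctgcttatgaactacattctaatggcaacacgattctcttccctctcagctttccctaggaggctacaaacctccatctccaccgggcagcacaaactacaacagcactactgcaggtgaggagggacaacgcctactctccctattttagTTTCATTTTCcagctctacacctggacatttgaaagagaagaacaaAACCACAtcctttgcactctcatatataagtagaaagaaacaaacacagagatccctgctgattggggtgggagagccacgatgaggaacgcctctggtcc
Gzmb: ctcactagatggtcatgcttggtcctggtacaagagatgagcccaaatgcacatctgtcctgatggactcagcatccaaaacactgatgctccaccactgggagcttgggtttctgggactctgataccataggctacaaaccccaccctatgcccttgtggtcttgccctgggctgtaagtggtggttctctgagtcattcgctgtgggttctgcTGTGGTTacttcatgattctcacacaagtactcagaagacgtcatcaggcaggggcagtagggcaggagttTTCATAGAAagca
Ctsc: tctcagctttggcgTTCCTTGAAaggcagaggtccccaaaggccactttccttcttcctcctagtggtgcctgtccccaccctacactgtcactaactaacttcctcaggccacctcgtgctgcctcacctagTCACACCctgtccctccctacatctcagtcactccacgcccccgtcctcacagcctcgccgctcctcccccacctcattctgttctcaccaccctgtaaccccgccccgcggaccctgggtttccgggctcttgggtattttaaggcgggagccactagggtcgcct

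None of the 4 motifs is spelled out in the Prf1 window. The Gzma window holds the interferon element 97 bases and the Runx letters 51 bases before that start. In the Gzmb window the Runx letters begin 34 bases before the start and the STAT letters 37 bases after it. The Ctsc window has the STAT letters 236 bases and the T-box letters 117 bases before the start. Of 32851 RefSeq mouse windows of this length, 3.98% hold the T-box letters, 5.27% the Runx letters, 8.30% the STAT letters and 3.44% the interferon element. Of the 9 granule genes with a window (11 windows, Gzmm and Srgn having 2 starts each), 4 hold the T-box letters, 4 the Runx letters, 4 the STAT letters and 2 the interferon element. A gene was counted if any of its windows matched, whereas the background shares are per window, so they are not a like comparison. The T-box match of Gzmm and the Runx and interferon matches of Srgn lie at starts 4806 and 19688 bases downstream of the outermost one. The Gzmc window, with its Runx match, lies at a start 6990 bases downstream. Ctsw had no entry. A match is a description of these letters and was not tested as a site.

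Each treatment was compared with IgG, the combination with each single treatment, and the effect of cGAMP in the presence of the antibody with its effect in its absence (the interaction). A gene was called at a Benjamini-Hochberg adjusted p under 0.05 in edgeR's quasi-likelihood test over 14182 genes. The comparisons share libraries, so their values are given side by side and are not independent of each other.

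With cGAMP, Srgn, Prf1 and Gzma were higher than with IgG and Ctsc was lower. That made 4 of 10 granule genes called, where 12.9% of all tested genes were. Of these, 3 were higher (background 9.37%) and 1 lower (background 3.56%). With anti-IL-35, Srgn and Prf1 were higher and Ctsc was lower, that is 3 genes called against 25.0% of all tested genes, 2 higher against 15.7% and 1 lower against 9.32%. These shares are near the background. With the combination, Srgn was higher than with IgG, and Ctsw, Ctsc and Gzmm were lower, that is 4 genes called against a background of 23.2%, 1 higher against 15.7% and 3 lower against 7.50%.

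Between the treatments, the combination stood above cGAMP alone in Srgn and below it in Ctsw, Gzma and Nkg7, with 4 genes called (background 14.8%), 1 higher (9.99%) and 3 lower (4.83%). Against anti-IL-35 alone, the combination was higher in Ctsc and lower in Ctsw and Nkg7, with 3 genes called (background 5.85%), 1 higher (3.67%) and 2 lower (2.17%). The interaction was negative for Ctsw, Srgn, Prf1, Gzma and Nkg7 and positive for Ctsc, with 6 genes called (background 10.4%), 5 lower (6.78%) and 1 higher (3.62%). Over the 10 genes the median log2 fold change was 0.04, -0.04, -0.09, -0.13, -0.03 and -0.21 in the order of comparisons given here, beside 0.02, -0.02, -0.02, -0.0050, -0.0012 and -0.02 over all tested genes. Gzmb, Gzmc and Gzmk were called in none of the 6 comparisons under TMM.

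**Figure D2:**
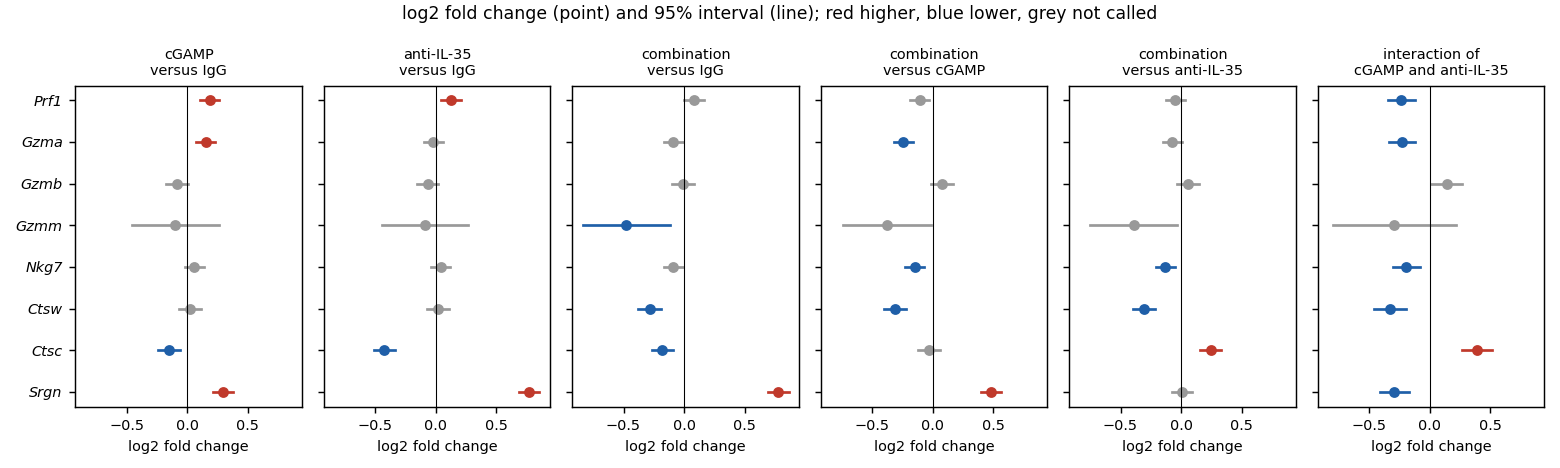
log2 fold change (x axis) of 8 granule genes in the 6 comparisons (panels), from edgeR on TMM-scaled counts of 12 libraries. Points are estimates, lines are 95% intervals, and red, blue and grey mark genes called higher, called lower and not called; Gzmc and Gzmk, with intervals wider than 1 log2 unit throughout, are left out.

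The directions of several of these calls depend on how libraries are scaled. Scaling on the summed counts of 9 NK receptor genes (Ncr1, Klrb1c, Klrb1f, Klrd1, Klrk1, Klre1, Klrc1, Klrc2 and Klri2) moved the log2 median of all tested genes to 0.21 for the combination against IgG, 0.34 against cGAMP, 0.20 against anti-IL-35 and 0.30 for the interaction. Of these receptors, 8 of 9 were called lower with the combination than with IgG and 9 of 9 lower than with cGAMP under TMM. Under that scaling 4 granule genes were called higher and 0 lower for the combination against IgG, where TMM gave 1 and 3, beside 34.0% and 1.25% of all tested genes. For cGAMP it gave 1 higher and 2 lower (background 3.14% and 5.80%), where TMM gave 3 and 1, and for anti-IL-35 it gave 1 and 1 (15.1% and 6.24%), where TMM gave 2 and 1. The combination then had 5 higher and 0 lower calls against cGAMP (background 48.9% and 0.564%) and 3 higher and 0 lower against anti-IL-35 (22.8% and 0.501%), and the interaction had 2 higher and 0 lower (22.1% and 1.61%). The shares called higher in these comparisons of the combination and in the interaction are near the background of the same scaling. Scaling by library totals alone shifted the median of all genes to -0.17 for the combination against IgG and to -0.15 for anti-IL-35. Against IgG it gave 1 higher and 2 lower calls for cGAMP (background 4.24% and 9.0%), 1 and 3 for the antibody (10.4% and 22.0%) and 1 and 6 for the combination (9.59% and 23.8%). It gave 2 and 2 for the interaction (5.35% and 4.12%).

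Taken relative to the median of all tested genes, the values of the granule genes given here moved only in the third decimal between the 4 scalings (TMM, RLE, library totals and NK receptors). This follows from the arithmetic, because a change of scaling shifts all genes and their median nearly alike, and it is no test of the calls. For the combination against cGAMP, Srgn lay 0.49 above that median, Ctsw 0.30 below it (-0.3044 to -0.3032), Gzma 0.24 below it (-0.2381 to -0.2367) and Nkg7 0.14 below it (-0.1434 to -0.1421). For the interaction, Ctsc lay at 0.41 and Ctsw at -0.31 relative to the median, with Srgn at -0.27, Prf1 at -0.22 and Gzma at -0.20 to -0.21. A change below therefore means a change relative to the bulk of the transcripts in these libraries.

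**Figure D3:**
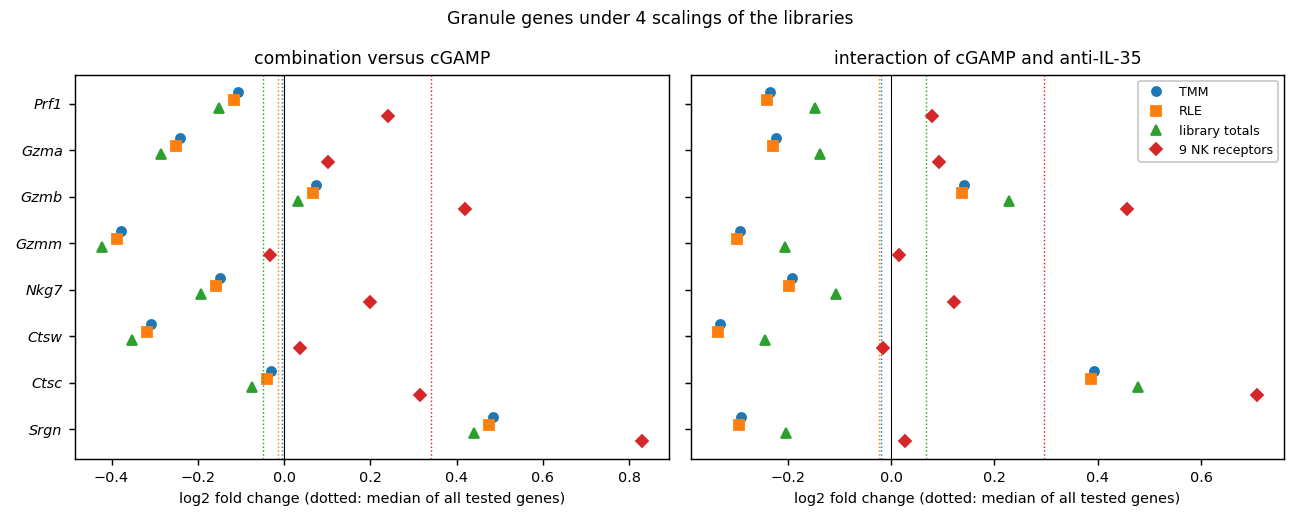
log2 fold change (x axis) of 8 granule genes for the combination against cGAMP (left) and the interaction (right) under 4 library scalings, marked by symbol, with dotted lines at the median of all tested genes under each scaling. Scaling on 9 NK receptors moves that median to 0.34 and 0.30, and the genes move with it.

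Prf1 encodes perforin (gene 18646, chromosome 10, 61297751 to 61304684 on GRCm38). The IgG libraries held it at 639, 641 and 637 CPM, the cGAMP libraries at 719, 718 and 747, the anti-IL-35 libraries at 717, 660.4 and 717, and the combination libraries at 692, 663 and 673. All 9 treated libraries were above all 3 IgG libraries, and anti-IL-35 and combination libraries overlapped. Prf1 rose by 0.19 ± 0.04 (log2 fold change ± SE), or 1.14-fold, with cGAMP (adjusted p = 0.000405, edgeR) and by 0.13 ± 0.04, or 1.09-fold, with the antibody alone (adjusted p = 0.0114, edgeR). The cGAMP call ended with library totals alone (adjusted p = 0.212) and with NK receptor scaling (0.518). The anti-IL-35 call ended with NK receptor scaling (0.0638), without a filter on low counts (0.0831) and without anti-IL-35 replicate 1 (0.164), and its value was -0.0016 with library totals alone.

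With the combination the Prf1 difference from IgG was 0.08 ± 0.04 (95% interval 0.0023 to 0.161, adjusted p = 0.138, edgeR), which did not pass, and under NK receptor scaling it was called higher at 0.32 (0.000114). Against cGAMP alone it was -0.11 ± 0.04 (adjusted p = 0.0601), a difference called lower under RLE size factors (0.0374), DESeq2 (0.0169), library totals (0.00411), a fit of only the groups compared (0.0188) and without anti-IL-35 replicate 1 (0.0302) or 3 (0.0239), and called higher, at 0.24, under NK receptor scaling. The interaction for Prf1 was -0.23 ± 0.06 (adjusted p = 0.00226), so the log2 effect of cGAMP was smaller by that amount in libraries with the antibody. It was not called with library totals alone (0.0834) and was 0.08 under NK receptor scaling. Within a library, Prf1 reads numbered 1.48 to 1.57 per read of Ncr1, an activating receptor that marks NK cells, in the IgG group. This ratio was 1.65 to 1.78 with cGAMP, 1.71 to 1.94 with the antibody alone and 1.90 to 2.03 with the combination, above the IgG range in all 9 treated libraries. Ncr1 itself stood at 419 ± 13.1, 428 ± 23.9, 385 ± 15.3 and 346 ± 7.20 CPM in the 4 groups.

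Gzma encodes granzyme A, a trypsin-like granzyme (gene 14938, chromosome 13, 113093824 to 113100981). Its levels were 1843, 1838 and 1795 CPM with IgG, 2058, 2081 and 1951 with cGAMP, 1856, 1895 and 1658 with the antibody alone, and 1665, 1726 and 1759 with the combination. The cGAMP libraries were above all others, the anti-IL-35 libraries spanned the IgG range, and the combination libraries lay below the IgG libraries. Gzma was raised 1.11-fold by cGAMP against IgG (0.15 ± 0.04, adjusted p = 0.00294, edgeR), a call that ended with library totals (0.545) and NK receptor scaling (0.721). It was 0.24 ± 0.04 lower in log2 (-0.24, adjusted p = 2.26e-06) with the combination than with cGAMP, and the sign turned to 0.10 under NK receptor scaling. The differences from IgG with the antibody alone (-0.02 ± 0.04) and with the combination (-0.09 ± 0.04, adjusted p = 0.0863) did not pass. The former was called lower under library totals, at -0.15 (0.00211). The latter was called lower under RLE (0.0487), library totals (1.38e-06), without a filter (0.00255), in a fit of only the groups compared (0.00255), and without anti-IL-35 replicate 1 (0.0059) or 3 (0.0158). NK receptor scaling called it higher, at 0.14 (0.045). Against anti-IL-35, the combination was called lower without anti-IL-35 replicate 3 (0.00603). The interaction was -0.22 ± 0.05 (adjusted p = 0.00245), not called with library totals alone (0.106) and 0.09 under NK receptor scaling.

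Gzmb encodes granzyme B, the granzyme that cleaves after aspartate and activates caspases (gene 14939, chromosome 14, 56258836 to 56262334). It stood at 310.1, 323 and 310.5 CPM with IgG, 292, 312 and 286 with cGAMP, 308, 297 and 296 with the antibody alone, and 312, 312 and 313 with the combination. The groups lay within 1.06-fold of each other, and the cGAMP libraries overlapped those of each other group. The anti-IL-35 libraries lay below the IgG and the combination libraries without overlap. The difference from IgG was -0.09 ± 0.05 with cGAMP (95% interval -0.177 to 0.0056), -0.07 ± 0.05 with the antibody alone (-0.157 to 0.024) and -0.01 ± 0.05 with the combination (-0.101 to 0.0802). Adjusted p-values of edgeR were 0.256, 0.308 and 0.905. The intervals reach to a 0.885-fold level with cGAMP, so differences of that size were not separable from the spread. Gzmb was called lower with cGAMP under library totals (adjusted p = 0.00135), NK receptor scaling (0.0483) and a fit of only the groups compared (0.0414). Library totals also called it lower with the antibody alone (0.000518) and with the combination (0.00326). NK receptor scaling called it higher with the combination than with IgG, at 0.22. It was also called higher under that scaling with the combination than with cGAMP, at 0.42 (adjusted p = 2.54e-06, edgeR). Against anti-IL-35 the value was 0.26 (adjusted p = 0.00409, edgeR). Its interaction was 0.14 ± 0.06 (adjusted p = 0.183) and was called higher under library totals (0.0125) and NK receptor scaling (0.000505).

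Because reads of a pair of genes in the same library share its scaling, ratios within a library do not depend on that choice. Gzmb reads per Gzma read were 0.168 to 0.176 with IgG, 0.142 to 0.150 with cGAMP, 0.157 to 0.179 with the antibody alone and 0.178 to 0.187 with the combination. The 3 cGAMP libraries had lower ratios than the 9 other libraries. Gzmb reads per Prf1 read were 0.485 to 0.505 with IgG and lower in all 9 treated libraries, at 0.383 to 0.435 with cGAMP, 0.413 to 0.449 with the antibody alone and 0.451 to 0.470 with the combination. These ratios are given as values and were not tested.

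**Figure D4:**
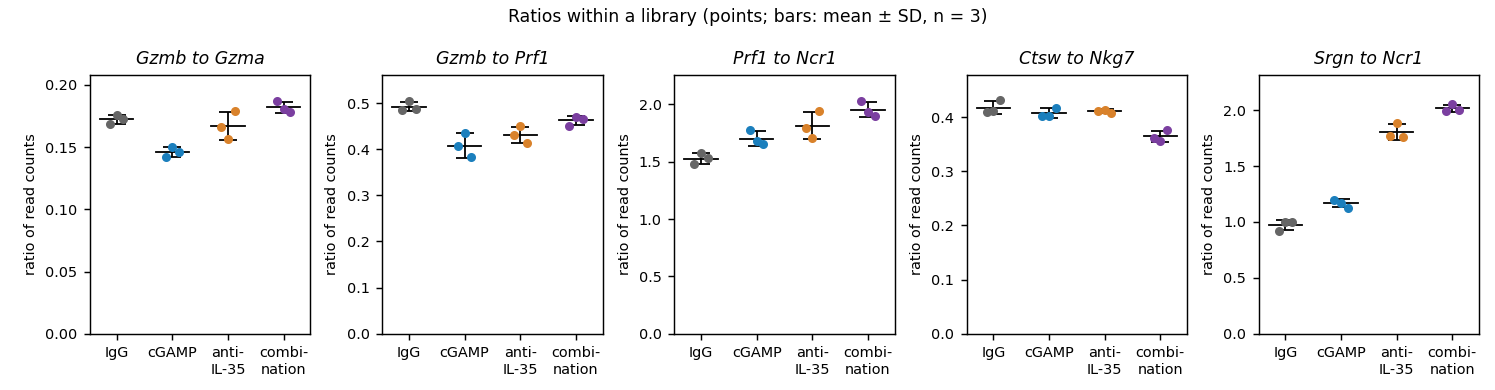
Ratios of read counts within a library (y axis, from 0) for 5 pairs of genes, by group. Points are libraries, long bars means and capped lines SDs (n = 3); Gzmb to Gzma is 0.146 ± 0.004 with cGAMP and 0.167 to 0.182 in the other groups, and Ctsw to Nkg7 is 0.364 ± 0.0102 with the combination and 0.407 to 0.417 elsewhere.

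Gzmm encodes granzyme M, a granzyme of NK cells that cleaves after methionine and leucine (gene 16904, chromosome 10, 79689020 to 79695261). It was covered by 145 to 240 reads a library, with levels of 14.0, 11.4 and 9.72 CPM with IgG, 11.7, 10.2 and 10.8 with cGAMP, 10.6, 9.92 and 12.5 with the antibody alone, and 8.58, 8.08 and 8.49 with the combination. The combination libraries were below all 9 others. Gzmm was lower with the combination than with IgG by a log2 fold change of -0.48 ± 0.18, a 0.719-fold level (adjusted p = 0.0475, edgeR). This call ended in 6 of the 12 fits that left out a library, the adjusted p reaching 0.298 without IgG replicate 1, where the value was -0.33. It also ended with the replicate number as a block (0.0567) and with NK receptor scaling (0.342). The difference from cGAMP (-0.38 ± 0.18, adjusted p = 0.177) and from anti-IL-35 (-0.39 ± 0.18, adjusted p = 0.247) did not pass.

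Gzmk encodes granzyme K, a trypsin-like granzyme whose gene lies near Gzma on chromosome 13 (gene 14945, 113171630 to 113180965). With 34 to 94 reads a library it stood at 3.94 ± 0.400, 3.76 ± 0.746, 3.76 ± 0.710 and 3.71 ± 1.49 CPM in the 4 groups. All groups overlapped, and the fitted differences between them ran from -0.08 to -0.02 in log2 with SEs of 0.31. Gzmc encodes granzyme C, a member of the Gzmb cluster on chromosome 14 (gene 14940, 56231397 to 56241647). It had 29, 45 and 17 reads in the IgG libraries, 31, 21 and 70 with cGAMP, 22, 20 and 27 with the antibody alone, and 19, 62 and 16 with the combination. In the cGAMP and combination groups 1 library each stood apart from its group mates, at 70 and 62 reads, all groups overlapped, and no difference passed (adjusted p of 0.402 to 0.972 in the 5 comparisons of groups). Of the 845 stretches of 50 bases in its annotated transcripts, 35 (4.14%) also occur in Gzmd, Gzme or Gzmg, so a small part of its reads cannot be assigned to it alone.

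The other granzymes of that cluster were near absent. Gzmd, Gzme, Gzmg and Gzmn had 0 counts in all 12 libraries, which allows a level of up to 0.0142 CPM over the 12 libraries from 3 counts, counting error only. How reads that match several genes were counted was not given in the sources used here; reads these genes share with Gzmc or each other may be missing from the counts, so neither the zeros nor this limit cover such reads. Gzmf had 2 reads, both in 1 cGAMP library. None of these 5 was tested.

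Nkg7 encodes a granule membrane protein needed for full granule release (gene 72310, chromosome 7, 43437138 to 43438246). It stood at 672, 652 and 668 CPM with IgG, 707, 685 and 684 with cGAMP, 678, 678 and 698 with the antibody alone, and 654, 622 and 598 with the combination. The combination libraries were below all cGAMP and anti-IL-35 libraries and overlapped the IgG libraries. Nkg7 was lower with the combination than with cGAMP (-0.15 ± 0.04, 0.902-fold, adjusted p = 0.00522, edgeR) and than with the antibody alone (-0.13 ± 0.04, 0.912-fold, adjusted p = 0.0308). The first call ended without combination replicate 3 (0.0627), the other in 4 of the 12 fits that left out a library (up to 0.21 without combination replicate 3), with the replicate number as a block (0.0515) and in a fit of only the groups compared (0.12). Under NK receptor scaling the values were 0.20 and 0.07. The difference from IgG (-0.09 ± 0.04, adjusted p = 0.104) did not pass, and was called lower by DESeq2 (0.0326), under library totals (2.27e-06), with no filter on low counts (0.0158), in a fit of only the groups compared (0.0179), and without anti-IL-35 replicate 1 (0.00959) or combination replicate 1 (0.0398). The interaction was -0.19 ± 0.06 (adjusted p = 0.0151) and 0.12 under that scaling, and its call also ended with library totals alone (0.269), with no filter on low counts (0.0579), without IgG replicate 2 (0.062) and without combination replicate 3 (0.0721).

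Ctsw encodes cathepsin W, a cysteine protease made mainly in NK cells and cytotoxic T cells (gene 13041, chromosome 19, 5465043 to 5468628). Its levels were 275, 268 and 288 CPM with IgG, 285, 275 and 285 with cGAMP, 279, 280.2 and 284 with the antibody alone, and 236, 222 and 225 with the combination. The single treatments overlapped IgG, whereas the 3 combination libraries were below the 9 others. Ctsw fell to a 0.821-fold level with the combination against IgG (-0.29 ± 0.05, adjusted p = 2.81e-06, edgeR), 0.807-fold against cGAMP (adjusted p = 1.07e-06) and 0.809-fold against anti-IL-35 (adjusted p = 2.85e-06). The 3 calls held in all 12 fits that left out a library, the largest adjusted p being 0.0002. The interaction was -0.33 ± 0.07 (adjusted p = 0.000211). Under NK receptor scaling the values were -0.05, 0.04 and -0.10 for the 3 comparisons and -0.02 for the interaction, none called. Ctsw reads per Ncr1 read were 0.636 to 0.693 with IgG and 0.634 to 0.691 with the combination, ranges that overlap almost throughout. Relative to Nkg7 the ratio was 0.401 to 0.431 in the 9 other libraries and 0.356 to 0.376 with the combination. The ratios to Ncr1 other than that of Prf1, and the ratio of Ctsw to Nkg7, were chosen after values were seen.

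Of the 9 NK markers, under TMM, 7 were called lower and 1 higher with the combination against IgG, 7 lower and 1 higher against cGAMP and 6 lower and 0 higher against anti-IL-35. In the interaction 7 were lower and 0 higher. With cGAMP alone 5 were higher and 0 lower, and with the antibody alone 2 were higher and 2 lower, comparisons in which neither Nkg7 nor Ctsw was called. Ncr1, Klrb1c, Klrk1, Klrd1, Klre1 and Klri2 are also among the 9 receptors used for scaling, so the marker and receptor counts are not independent. Of those receptors, 4 were higher and 0 lower with cGAMP, and 0 higher and 2 lower with the antibody alone. The summed T cell markers took another order, with 685 to 698 CPM for IgG, 636 to 655 for cGAMP, 508.7 to 529 for anti-IL-35 and 516 to 531 for the combination. The part of either in the results for Nkg7 and Ctsw was not tested.

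Ctsc encodes cathepsin C (dipeptidyl peptidase I; gene 13032, chromosome 7, 88278024 to 88315861), which also activates the serine proteases of neutrophils and mast cells. Its levels were 399.5, 401 and 387 CPM with IgG, 351, 363 and 357 with cGAMP, 301, 306 and 278 with the antibody alone, and 342, 359.8 and 346 with the combination. The IgG libraries were the highest and the anti-IL-35 libraries the lowest, with cGAMP and combination libraries overlapping in between. Ctsc fell to a 0.746-fold level with the antibody alone (-0.42 ± 0.04, adjusted p = 4.78e-11, edgeR), 0.902-fold with cGAMP (-0.15 ± 0.04, adjusted p = 0.0166) and 0.883-fold with the combination (-0.18 ± 0.04, adjusted p = 0.00161). The cGAMP call ended without IgG replicate 1 (0.0747), IgG replicate 2 (0.0829) or cGAMP replicate 1 (0.0653). The combination was 1.18-fold above anti-IL-35 alone (0.24 ± 0.04, adjusted p = 9.89e-05). The interaction was 0.39 ± 0.06 (adjusted p = 5.27e-06), and it was also called higher under library totals and under NK receptor scaling. Against IgG, NK receptor scaling turned the combination value to 0.05, and against cGAMP it called the combination higher, at 0.32.

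Macrophage and dendritic cell markers were likewise lowest with the antibody alone. The 10 macrophage markers summed to 3076 to 3147 CPM with IgG, 3095 to 3238 with cGAMP, 2433 to 2553 with the antibody alone and 2906 to 3014 with the combination. The 10 dendritic cell markers summed to 6461 to 6615, 5492 to 5536, 4465 to 4732 and 5436 to 5663 CPM in the same order. With anti-IL-35, 8 of 10 macrophage markers, 3 of 10 dendritic cell markers and 11 of 11 B cell markers were called lower. In the interaction, 11 of 11 B cell, 4 of 10 macrophage, 3 of 10 dendritic cell and 3 of 13 T cell markers were called higher, as Ctsc was. In each of these lists 0 were called lower. With cGAMP alone the dendritic cell sum was below that with IgG, as Ctsc was, while the macrophage and B cell sums were not. The part of these cells in the Ctsc values was not tested.

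Srgn encodes serglycin (gene 19073, chromosome 10, 62493833 to 62527445), a proteoglycan that many blood cells use in their granules, neutrophils and mast cells among them. Among the 8 genes in the plot of log2 fold changes it had the largest change in the 3 comparisons with IgG and in that of the combination with cGAMP, but not in that with anti-IL-35 or in the interaction. Its levels were 398, 409 and 414 CPM with IgG, 485, 502 and 510.2 with cGAMP, 708, 728 and 651 with the antibody alone, and 681, 704 and 710.1 with the combination. The cGAMP libraries lay between the IgG libraries and those of the other treatments without overlap, and anti-IL-35 and combination libraries overlapped. Srgn rose 1.23-fold with cGAMP (0.30 ± 0.04, adjusted p = 4.18e-07, edgeR), 1.71-fold with the antibody alone (0.77 ± 0.04, adjusted p = 8.62e-21) and 1.72-fold with the combination (0.78 ± 0.04, adjusted p = 8.37e-21). The combination was 1.40-fold above cGAMP (0.48 ± 0.04, adjusted p = 3.98e-13). It differed from anti-IL-35 by 0.0054 ± 0.04 (95% interval -0.078 to 0.0887, adjusted p = 0.971), an interval that leaves room for a change of up to 1.06-fold, and NK receptor scaling called it higher at 0.21 (0.00982). The 4 calls between groups held in each of the 12 fits that left out a library. The interaction was -0.29 ± 0.06 (adjusted p = 0.000305) and 0.03, not called, under NK receptor scaling.

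Neutrophil markers took the direction of Srgn in the comparisons with IgG, but not in that of the combination with anti-IL-35. There 7 of 16 were called lower and 1 higher, with a median log2 fold change of -0.11, and Srgn was not called. All 16 neutrophil markers were called higher than with IgG in each treated group, with a median log2 fold change of 1.24 with cGAMP, 2.13 with the antibody alone and 2.0 with the combination, and all 16 were called lower in the interaction. Mast cell and basophil markers summed to 216 to 242 CPM with IgG, 250.1 to 268 with cGAMP, 278 to 295 with the antibody alone and 322 to 334 with the combination, with Tpsab1 at 0 in each group. Reads of Srgn per read of Ncr1 numbered 0.918 to 1.0 with IgG, 1.13 to 1.20 with cGAMP, 1.76 to 1.89 with the antibody alone and 2.0 to 2.05 with the combination. The part of neutrophil RNA in the Srgn values was not tested.

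**Figure D5:**
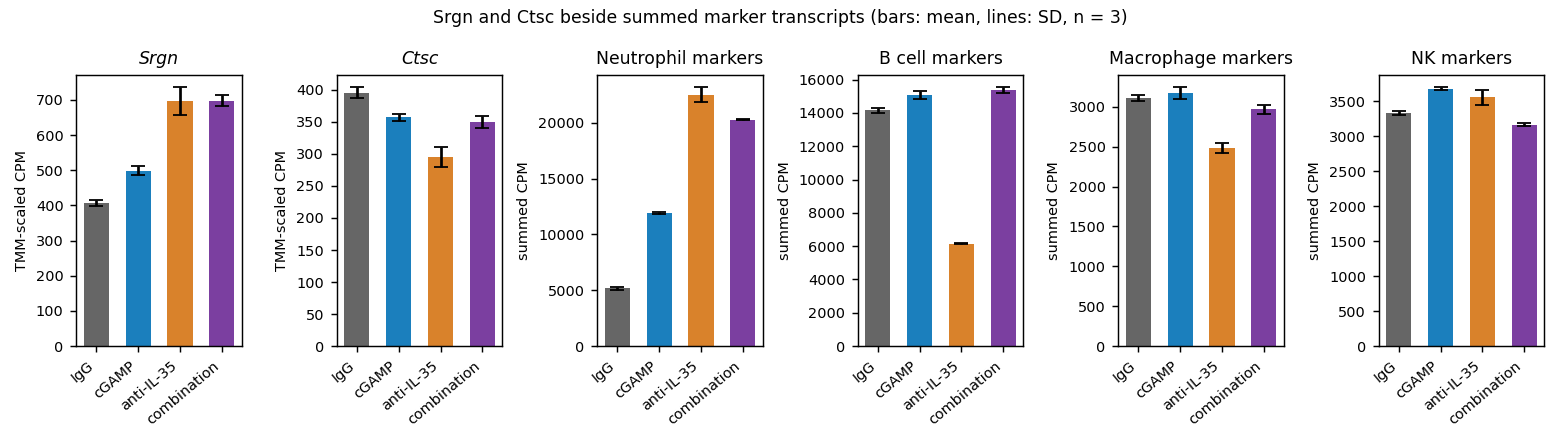
Mean levels (bars from 0, lines SD, n = 3) of Srgn and Ctsc in TMM-scaled CPM and summed CPM of 16 neutrophil, 11 B cell, 10 macrophage and 9 NK marker genes, by group (x axis). Srgn and the neutrophil sum are lowest with IgG and high with the antibody alone and the combination, and Ctsc and the macrophage and B cell sums are lowest with the antibody alone.

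Other genes of granule biology were taken from a list of 38, of which 32 were tested. Of these, 9 were called higher and 2 lower with cGAMP (9.37% and 3.56% of all tested genes), 11 and 6 with the antibody alone (15.7% and 9.32%), and 9 and 4 with the combination against IgG (15.7% and 7.50%). The combination gave 9 higher and 6 lower against cGAMP (9.99% and 4.83%) and 2 and 2 against anti-IL-35 (3.67% and 2.17%), and the interaction gave 2 and 6 (3.62% and 6.78%). Genes for granule biogenesis and release, 13 of the 32 tested, held 5, 7 and 5 of the higher calls and 0 of the lower calls in the 3 comparisons with IgG. Values and calls of the listed genes are given under TMM alone. Their dependence on the scaling or on single libraries was not examined.

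Lyst, the lysosomal trafficking regulator mutated in Chediak-Higashi syndrome, stood at 171 ± 1.12 CPM with IgG, 227 ± 6.62 with cGAMP, 317 ± 26.2 with the antibody alone and 331 ± 8.76 with the combination. Its log2 fold changes against IgG were 0.41 ± 0.05, 0.89 ± 0.05 and 0.95 ± 0.05 (adjusted p = 2.58e-08, 6.74e-20 and 6.51e-21, edgeR). Rab27a, the small GTPase that docks granules at the membrane, rose by 0.41 ± 0.06 with cGAMP, 0.76 ± 0.06 with the antibody alone and 0.63 ± 0.06 with the combination, with an interaction of -0.55 ± 0.08 (adjusted p = 1.32e-06). Snap23, a membrane fusion SNARE, rose by 0.30 ± 0.06, 0.89 ± 0.06 and 0.73 ± 0.06 in the same order. The fusion syntaxin gene Stx11 was higher with the antibody alone (0.66 ± 0.07) and with the combination (0.73 ± 0.07). Cd63, a tetraspanin of lysosomal granules, rose by 0.55 ± 0.11, 1.18 ± 0.10 and 0.98 ± 0.10 from 22.3 ± 1.93 CPM with IgG. These 5 genes are also transcribed in myeloid cells and were highest in the groups with the most neutrophil marker RNA; the part of that RNA was not tested.

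Among genes that guard the cell against its own proteases, Serpinb9, the inhibitor of granzyme B, was lower with the combination (172 ± 7.22 CPM) than with cGAMP (206 ± 17.4 CPM; -0.26 ± 0.05, adjusted p = 0.0003, edgeR) or the antibody (202 ± 7.06 CPM; -0.23 ± 0.05, adjusted p = 0.00413). Stxbp2, the syntaxin-binding partner Munc18-2, was lower with the combination than with the antibody alone (-0.22 ± 0.06, adjusted p = 0.012). Among lysosomal proteases, Ctss, an antigen-processing cathepsin, fell by 0.27 ± 0.04 with cGAMP and by 0.36 ± 0.04 with the antibody alone, and its interaction was 0.43 ± 0.06 (adjusted p = 1.28e-07). Ctsh, an aminopeptidase cathepsin, had an interaction of 0.43 ± 0.08 (adjusted p = 0.000182). Ctss and Ctsh thus shared the direction of the Ctsc interaction, while Ctsd, an aspartic protease, had the opposite sign (-0.28 ± 0.05, adjusted p = 3.16e-05). Ctsb, a cysteine cathepsin, was lower with the combination than with cGAMP (-0.23 ± 0.03) and higher than with the antibody alone (0.17 ± 0.03). Lamp2, a lysosomal membrane protein, was higher with the combination than with IgG (0.38 ± 0.05) and than with cGAMP (0.24 ± 0.05). Sytl3, a Rab27 effector, did not pass for the combination against anti-IL-35 (-0.17 ± 0.06, adjusted p = 0.0713).

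Genes whose course over the 12 libraries was most like that of a granule gene were ranked by the root mean square (RMS) difference of centred log2 CPM, among 9933 genes averaging 5 CPM or more (9934 for Gzmc). For Prf1 they were Prkar1a (RMS difference 0.0358), Serinc3 (0.0369) and Il2rb (0.0373), beside 0.173 for the median gene. The RMS distance of Prf1 from its own mean was 0.0762. Il2rb, a receptor subunit for IL-2 and IL-15, stood at 1357, 1485, 1444 and 1369 CPM in the IgG, cGAMP, anti-IL-35 and combination groups. For Gzma they were Thap7 (0.0454), Rbl2 (0.0505) and Rnf166 (0.0509), with a median of 0.184 and an own distance from its mean of 0.102. For Gzmb, whose own RMS distance from its mean was 0.0493, they were Ddx23 (0.0398), Hnrnpu (0.0430) and Ywhae (0.0437), genes that varied as little as Gzmb did. For Gzmc the nearest genes, Cnn3 (0.328), Hs3st2 (0.395) and Zfp287 (0.402), were far from it, as its low counts allow.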

How the data were processed

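RNA-seq libraries of cells sorted from tumours and described as NK cells were analysed from a deposited table of raw read counts per gene. The submitters' processing notes name mm10 as the build and featureCounts, STAR 2.7.7a and SAMtools 1.15 as the tools with which the authors made these counts. Not given in the sources used here were the strand setting, the handling of multi-mapping reads and the sort gate. RNA was extracted from sorted cells and libraries were made with a NEBNext Ultra kit, per the labels' protocols. Of the 27179 gene IDs, 1049 had no symbol (0.251% of counts) and stayed in under their ID.

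Counts of all 12 libraries were fitted in 1 model with edgeR 4.0.16 in R 4.3.3 (filterByExpr with a minimum count of 10, TMM, robust quasi-likelihood fit, 8 residual degrees of freedom, common biological coefficient of variation 0.0958), and p-values were adjusted by Benjamini-Hochberg over 14182 genes in each comparison. The fit was also run on simulated counts with a lower coefficient of variation than this common value, and no result given here rests on that run. Pairs of libraries within groups gave a chi-square over degrees of freedom of 3.23 to 11.3, more than sampling of reads gives. Each library was therefore kept as a separate one. This check cannot tell different mice from separate preparations of a shared pool. Levels per kilobase used the exon union of GENCODE M21 basic transcripts, gene coordinates and promoters came from RefSeq on GRCm38.p6, and marker sums are in TMM-scaled CPM.

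The 10 genes and the other lists were chosen with earlier results of these data known. All 10 were named in each comparison, as were up to 6 of the 38 listed granule genes with the smallest p in each, and the 3 genes most like Prf1, Gzma, Gzmb and Gzmc, passing over immunoglobulin genes and locus symbols, after adding 0.5 CPM. Alternatives were RLE size factors, library totals alone, scaling on 9 NK receptor genes, DESeq2 1.42.0, fits without a low-count filter, with 1 CPM required in 6 libraries or with just the groups compared, removal of 261 immunoglobulin and 72 other-cell marker genes, the replicate number as a block, and leaving out each library.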

Additional observations from a re-analysis of the deposited data

Results flagged for a closer look

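For 6 of 10 granule genes the log2 effect of cGAMP differed between libraries with and without the antibody, beside 10.4% of all tested genes. The test was edgeR's quasi-likelihood test of the interaction, which measures spread among libraries that may not be different mice. The effect with the antibody minus that without it was -0.331 for Ctsw (adjusted p = 0.000211), -0.29 for Srgn (adjusted p = 0.000305), -0.235 for Prf1 (adjusted p = 0.00226), -0.224 for Gzma (adjusted p = 0.00245), -0.193 for Nkg7 (adjusted p = 0.0151) and 0.393 for Ctsc (adjusted p = 5.27e-06). For Gzmb it was 0.14, which did not pass (adjusted p = 0.183). Under NK receptor scaling the values of Prf1, Gzma, Nkg7 and Srgn changed sign and were not called, that of Ctsw was -0.02 and not called (adjusted p = 0.913), and those of Ctsc and of Gzmb (0.456, adjusted p = 0.000505) were called higher. With library totals alone Prf1, Gzma and Nkg7 were not called (0.0834, 0.106 and 0.269), and Gzmb was (0.0125). All 16 neutrophil markers were called lower and all 11 B cell markers higher in the same interaction, and 7 of 9 NK markers were lower; their part in these values was not tested.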

How the results depend on the processing

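The count of granule genes called moved by more than 1.5 times in 2 cases: 7 for the combination against IgG with library totals alone (4 with TMM), where 33.4% of all tested genes were called (23.2% with TMM), and 2 for the interaction with NK receptor scaling (6 with TMM), where 23.8% were called (10.4% with TMM). Leaving out each library gave 3 to 4 calls for cGAMP, 2 to 3 for anti-IL-35 and 3 to 6 for the combination against IgG, 3 to 5 against cGAMP, 2 to 3 against anti-IL-35, and 5 to 6 for the interaction. With library totals alone Prf1 turned to -0.0016 for anti-IL-35 against IgG. NK receptor scaling turned Gzma to 0.14, Gzmb to 0.22 and Ctsc to 0.0543 for the combination against IgG. Against cGAMP it turned Prf1 to 0.24, Gzma to 0.10, Nkg7 to 0.20, Ctsw to 0.0372 and Ctsc to 0.32. Nkg7 turned to 0.0696 against anti-IL-35. In the interaction Prf1 turned to 0.0794, Gzma to 0.0916, Nkg7 to 0.121 and Srgn to 0.0263. These scalings move all genes alike: relative to the median of all tested genes, which NK receptor scaling put at 0.2961 in the interaction, Prf1 lay at -0.2167, Gzma at -0.2045, Nkg7 at -0.1752 and Srgn at -0.2698 there. A further 58 sign changes were of values not called under either setting, 28 of them of Gzmc or Gzmk.

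With the replicate number as a block, 4, 3, 3, 4, 2 and 6 genes were called in the order cGAMP, anti-IL-35 and combination against IgG, combination against cGAMP, combination against anti-IL-35 and interaction; it ended the calls of Gzmm against IgG (adjusted p = 0.0567, edgeR) and of Nkg7 against anti-IL-35 (0.0515) and no other. The numbers did not pair the libraries: 0 of 18 same-numbered pairs correlated above 0.1 (r of -0.0533 to 0.0217), and 3 of 12 libraries correlated best with their own number. Removing immunoglobulin and other-cell marker genes, or filtering at 1 CPM in 6 libraries, changed no call of the 10 genes. Both settings leave the counts of the 10 genes as they were and act only through scaling, shared estimates and p-value adjustment. The part of other-cell RNA in these counts was therefore not tested by them. Counts of 16 to 94 reads a library limit Gzmc and Gzmk, and intervals cover counting and spread between these libraries only.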
